A study of Mus musculus with 6 samples.

Results

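miR-6236, miR-6237, miR-6238, miR-6239 and miR-6240 are 5 mouse entries with consecutive numbers in the miRNA registry. They were selected by their mature identifiers, MIMAT0024857 (miR-6236), MIMAT0024858 (miR-6237), MIMAT0024859 (miR-6238), MIMAT0024860 (miR-6239) and MIMAT0024861 (miR-6240), and make up 5 of the 2110 loci in the deposited count table. The set was proposed with the old against young result of these libraries already known, so that the differences between old and young given here describe the entries. Test results given for them restate that result and are not evidence for a difference. Small RNA was sequenced from exosomes, small membrane vesicles that cells release, which had been collected from muscle of young mice (3 libraries) and of old mice (3 libraries). No treatment, strain, genotype, sex or age in months is given in the sources used here, nor is the muscle or the vesicle isolation. Nothing states that the 3 replicates of a group came from different mice, and the spread between them may therefore be technical.

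A miRNA is cut from a hairpin precursor and guides a silencing complex to messenger RNAs, mainly through its seed, bases 2 to 8 of the mature sequence. Ribosomal RNA, the RNA core of the ribosome, is the most abundant RNA of a cell, and its pieces are common in small RNA libraries and in vesicle preparations. A registry entry whose letters resemble a piece of ribosomal RNA can collect reads that come from the ribosome and not from a hairpin. These 5 entries carry the working label of likely RNA fragments, and no function in muscle is attributed to them here.

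The 5 mature sequences are shown because they have little in common beyond their numbering. They come from RefSeq (GRCm38.p6, the assembly also called mm10), where all 5 matched by position. They are written 5′ to 3′ with the seed in capitals.
miR-6236: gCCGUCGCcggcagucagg
miR-6237: uUAAGGAUugggucuuggaauuc
miR-6238: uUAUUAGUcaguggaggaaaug
miR-6239: uAGCGUUGgaucacucggug
miR-6240: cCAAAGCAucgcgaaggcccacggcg
No 2 of the 5 share a seed, and the longest run of identical bases between any 2 of them was 6, between miR-6236 and miR-6238. Among the mature entries of the RefSeq table, miR-6239 shared its seed with miR-6351 and miR-6240 shared its seed with miR-330-3p. The other 3 shared theirs with no entry.

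The precursors of the 2 entries with the most counts are shown to place the mature sequence in them. They are the GENCODE release M21 transcripts of the miRNA genes, with the mature entry in capitals.
Mir6239: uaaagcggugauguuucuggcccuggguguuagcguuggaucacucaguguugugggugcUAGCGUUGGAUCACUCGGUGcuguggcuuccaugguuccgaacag
Mir6240: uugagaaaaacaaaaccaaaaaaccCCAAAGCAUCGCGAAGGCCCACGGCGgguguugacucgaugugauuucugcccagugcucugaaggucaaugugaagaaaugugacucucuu
The precursor of miR-6239 holds the mature sequence a second time, with 1 difference. Bases 31 to 50 repeat bases 61 to 80, 30 bases upstream, with the substitution G17A (position 17 from the 5′ end of the mature entry). The differing base is in capitals below.
miR-6239 mature: uagcguuggaucacucGgug
upstream repeat: uagcguuggaucacucAgug
With up to 2 differences allowed, the precursors of miR-6237, miR-6238 and miR-6240 held no second copy of their mature entry.

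The 3 entries with the most counts also stood apart from the 2 others in length or base composition. miR-6240 has 26 bases, a length reached by 18 of the 2110 loci, whose median is 22. miR-6236 is short, at 19 bases, and only 61 loci are as short or shorter. miR-6239 has 20 bases, with 178 loci as short or shorter. miR-6237 and miR-6238 have lengths closer to the median, 23 and 22 bases. The share of G and C was 78.9% in miR-6236 and 69.2% in miR-6240, above 98.8% and 94.9% of the 1734 entries with a RefSeq sequence. It was 55.0% in miR-6239, near the median of 52.2%. It was lower in miR-6237 (39.1%, above 12.9% of these entries) and miR-6238 (36.4%, above 6.46%).

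Each of the 5 precursors carries 1 mature entry, as do 27.7% of the 1186 annotated precursors that hold a counted locus. A typical miRNA hairpin folds into a stable stem, from which both arms can be cut. The predicted folding energy (RNAfold) was -0.211 kcal/mol per base for the precursor of miR-6240 and -0.208 for that of miR-6238, against a median of -0.413 over 2045 loci. Only 0.929% and 0.782% of these loci lay in a less stable precursor. The precursors of miR-6239 (-0.339) and miR-6237 (-0.309) were also less stable than the median, with 20.3% and 11.4% of loci in a less stable precursor. Within the predicted folds, 73.1% of the bases of miR-6240 and 73.9% of those of miR-6237 were paired, below the median of 81.0%. miR-6239 (85.0%) and miR-6238 (86.4%) were above it. The mature entry of miR-6239 paired in both directions, so that it did not lie within 1 arm of a stem in this prediction.

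**Figure D1:**
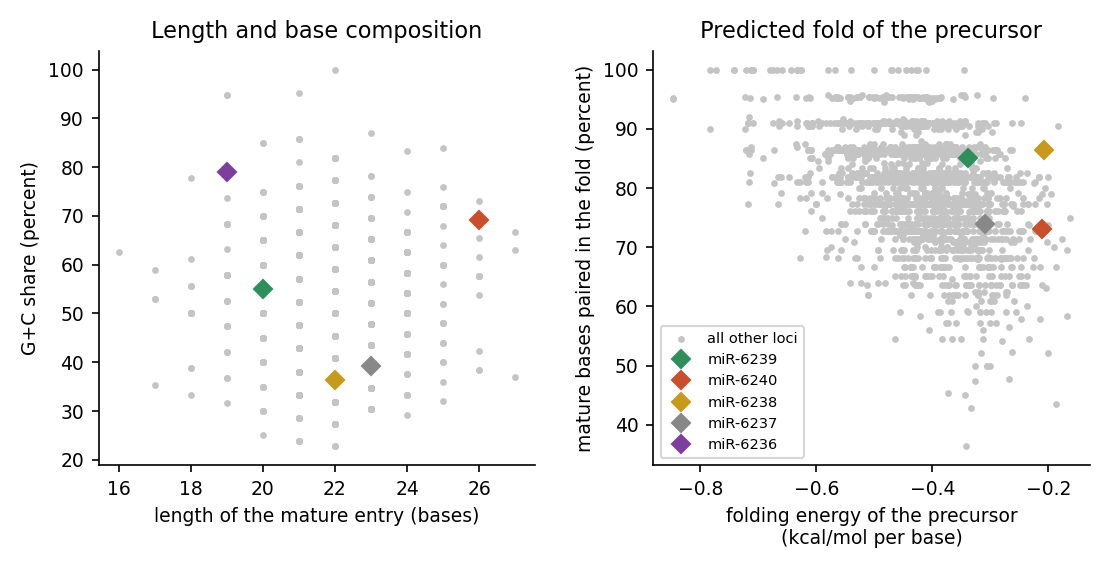
Left, length of each mature entry in bases against its G+C share in percent; right, predicted folding energy of its precursor per base against the percent of mature bases that are paired. Grey points are all other loci with a value and diamonds are the entries (5 on the left, and 4 on the right, where miR-6236 is not drawn); miR-6240 lies at 26 bases and 69.2% G+C, and its precursor and that of miR-6238 lie at the weakly folded end, at -0.211 and -0.208 kcal/mol per base.

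The 5 genes are scattered over 4 chromosomes (mm10). Other miRNA genes were left out of the search for the nearest gene. miR-6240 lies at chr5:114851973-114851998 on the plus strand, 1666 bases from the nearest other annotated gene, 4930519G04Rik. miR-6236 lies at chr9:110281353-110281371 on the plus strand, and the nearest other gene, the lincRNA Gm42775, is 7581 bases away. miR-6238 lies at chr7:53891796-53891817 on the minus strand, 104125 bases from the nearest other gene. miR-6239 (chr14:117953768-117953787, minus strand) and miR-6237 (chr9:9894484-9894506, plus strand) lie inside genes of the opposite strand, the glypican gene Gpc6 and the contactin gene Cntn5. No exon of these genes covers either entry. Reads were counted for a locus from both strands, so that reads from an unspliced Gpc6 or Cntn5 transcript over these bases would count for the entry.

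The letters of each mature entry were searched in 141767 annotated transcripts, on both strands. Each was found exactly in its own precursor and in no other transcript. The longest run shared with any of 354 annotated ribosomal RNA transcripts was 8 bases for miR-6240 and miR-6238, 9 for miR-6236, 10 for miR-6239 and 11 for miR-6237. The median over 1734 entries was 9, and 26.7% of them shared a run of at least 10 bases. These ribosomal transcripts had a median length of 116 bases and a maximum of 1849. The longer large-subunit ribosomal RNA and the ribosomal precursor transcript were not among the sequences searched, and the shorter ones may be incomplete there. Other places in the genome with the same letters were not analysed here. A run of identical bases also misses a match with a difference inside it. These run lengths therefore cannot show whether an entry resembles ribosomal RNA. Whether reads of these entries come from ribosomal RNA was not tested.

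The 6 libraries held 904892 to 1706396 counts, the lowest number in old replicate 1. That library also stands apart from the other old libraries in composition. Counts outside miR-21a-5p were 584403 of 904892 there, against 723327 of 1417733 in old replicate 2 and 652013 of 1383960 in old replicate 3. Its chi-square over degrees of freedom against old replicates 2 and 3 was 92.4 and 147. The other pairs within a group had 8.17 to 16.3. Muscle-enriched miRNAs (6 of 9 loci tested, 4 higher in old by edgeR's quasi-likelihood test and 2 at 0 in every library) took 4.95% to 6.26% of counts in young and 4.61% to 9.91% in old libraries. Red blood cell markers, of which miR-486a-5p is also in the muscle list, took 4.03% to 4.36% and 4.12% to 4.52% (2 of 3 tested, none called), and liver markers took 0.0165% to 0.0176% and 0.0174% to 0.0187% (1 of 2 tested, not called). Markers of smooth muscle and fibroblasts (4 of 4 loci tested, 1 higher) took 2.70% to 3.01% in young and 3.53% to 4.27% in old. Leukocyte markers (3 of 4 tested, 1 lower) took 0.110% to 0.135% and 0.0827% to 0.105%. Neural markers (3 of 6 tested, none called) took 0.00451% to 0.00664% and 0.00751% to 0.0103%. The 3 tested neural loci were all copies of miR-124a-3p, with 191, 193 and 194 counts over all libraries. The endothelial marker miR-126a-3p, miR-142a-3p of leukocytes, miR-122-5p of liver, miR-9-5p of neurons, miR-486a-5p and 1 of the 2 copies of miR-1a-3p were listed at 0 in every library. All 8 of these loci share bases with another entry of the table, as do 106 loci in all, of which 104 are at 0 (of the 2004 others, 1011 are), so that a 0 at such a locus does not show that the miRNA was absent. None of miR-6236 to miR-6240 shares bases with another entry. The smooth muscle and fibroblast, leukocyte and neural shares differed between the groups without overlap. Of the 347 single loci tested, 14.1% had every old library above every young one and 13% had every old library below. By edgeR's test 3.46% of them were called higher in old and 0.865% lower. The 4 muscle-enriched loci called include the 2 copies of miR-133a-3p. The leukocyte markers did not move together. miR-155-5p was lower in old (log2 fold change -0.81), while miR-223-3p (0.11) and miR-150-5p (0.09) were slightly higher. The muscle-enriched share overlapped, but most of it was miR-206-3p (log2 fold change 0.17), and the median log2 fold change of the 6 tested muscle-enriched loci was 0.86, with miR-133a-3p at 1.11 and 1.12 for its 2 copies and miR-499-5p at 1.00. The part of these markers in the values below was not tested. In a bulk vesicle library, fewer vesicles from a cell type and less of an RNA in each vesicle cannot be told apart.

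Levels are in CPM, counts scaled to a common library size, with sizes adjusted by TMM, a trimmed-mean scaling that assumes most loci do not differ. A level is thus a proportion of the miRNA counts in a library, not an amount of RNA. Intervals are exact Poisson intervals at 95% and cover counting error only.

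miR-6240 was the most abundant of the 5. Its level was 1743, 1357 and 1476 CPM in young replicates 1, 2 and 3, and 2964, 3483 and 3005 CPM in old replicates 1, 2 and 3. The groups did not overlap, and the lowest old library was 1.70 times the highest young one. Among all loci it ranked 53rd, 61st and 56th by counts in the young libraries and 39th, 37th and 40th in the old ones. Counting error was small beside this difference, with an interval of 1676 to 1813 CPM for the highest young library and of 2858 to 3074 CPM for the lowest old one.

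miR-6239 was about an order of magnitude less abundant. It stood at 168, 150.4 and 249.5 CPM in young replicates 1, 2 and 3, and at 291, 445 and 337 CPM in the old ones. Young replicate 3 was the highest young library. Old replicate 1, the lowest old library, was close to it, at 1.17 times the level of young replicate 3.

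miR-6236 stood at 73.1, 46.9 and 43.6 CPM in young and at 75.6, 152.5 and 144 CPM in old replicates 1, 2 and 3. Old replicate 1 lay next to young replicate 1, at 1.03 times its level, while the other 2 old libraries were well above all young ones. These 2 neighbouring libraries held 75 and 106 counts, so that their order is within counting error. The groups of miR-6236 are therefore separated by less than the precision of the libraries that border on each other.

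miR-6238 was close to the limit of detection. It had 6, 6 and 2 counts in young and 3, 2 and 7 counts in old replicates 1, 2 and 3, or 26 in all. In CPM the group means were 3.01 ± 1.52 for young and 3.30 ± 2.01 for old (SD, 3 libraries each), with intervals as wide as 2.18 to 11.2 CPM for the highest library. The groups overlapped and no difference was detectable at this depth.

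miR-6237 had 0 counts in every library. Taking 3 counts as the limit that a count of 0 allows gives 1.80 to 3.02 CPM depending on the library, and the upper bound of the exact Poisson interval is 2.22 to 3.72 CPM. Of the 5 entries, then, 3 passed the filter on low counts and 2 did not. In order of level, miR-6240, miR-6239, miR-6236 and miR-6238 did not overlap with each other within any library.

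**Figure D2:**
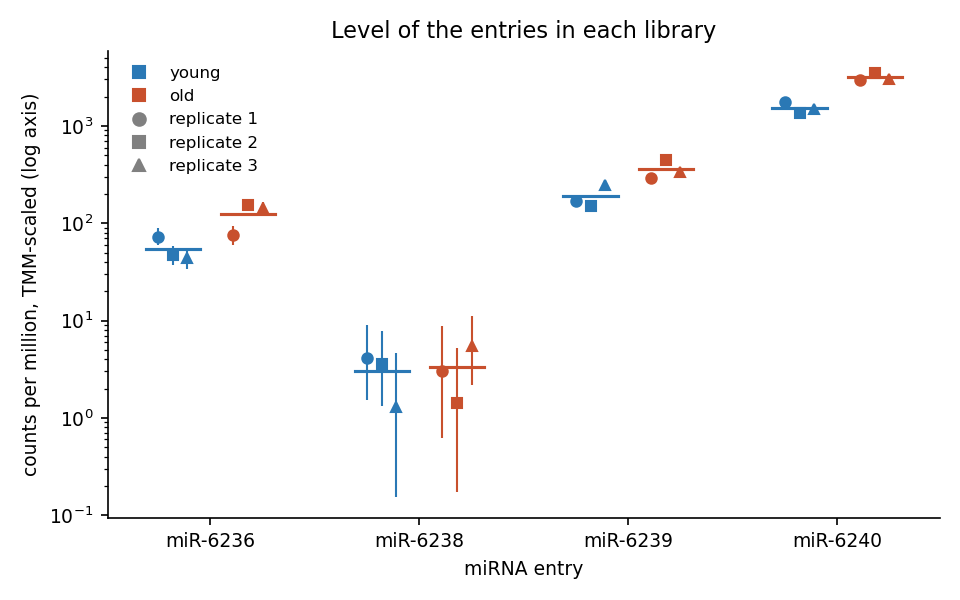
Level of 4 entries in each library, in TMM-scaled CPM on a log axis. Symbols are single libraries with exact Poisson 95% intervals, horizontal bars are group means over 3 libraries, and miR-6237, at 0 in all libraries, is not drawn; miR-6240 in old (2964 to 3483) lies wholly above young (1357 to 1743), and miR-6238 overlaps.

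As group means, miR-6240 had 1526 ± 198 CPM in the young libraries and 3151 ± 288 in the old ones (SD, n = 3 per group throughout), a log2 fold change of 1.05 ± 0.17 (SE) in edgeR's fit of all tested loci. miR-6239 had 189 ± 53.0 and 358 ± 78.7 CPM, a log2 fold change of 0.92 ± 0.23. miR-6236 had 54.5 ± 16.1 and 124 ± 42.1 CPM, a log2 fold change of 1.19 ± 0.29. All 3 were thus about 2-fold higher in old, and their standard errors grew as their counts fell. Ordered from the highest in old to the lowest, their log2 fold changes ranked 10th, 19th and 4th of 347 loci. By average level they ranked 45th, 108th and 163rd.

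All 3 tested entries were past an adjusted p of 0.05 in edgeR's quasi-likelihood test and higher in old, where 3.46% of all tested loci were (0.865% were called lower and 4.32% in either direction). All 3 also had every old library above every young one, as did 14.1% of all tested loci (13% had every old library below every young one). The calls of miR-6236 and miR-6239 were lost with library totals in place of TMM (edgeR adjusted p = 0.0510 and 0.0663). They were also lost with the replicate number as a block (edgeR adjusted p = 0.104 and 0.0888). The same happened on leaving out 4 and 3 of the 6 libraries in turn. The counts of called and of non-overlapping entries restate the result with which the set was proposed, and nothing is read from them. miR-6238 and miR-6237 did not enter the test.

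**Figure D3:**
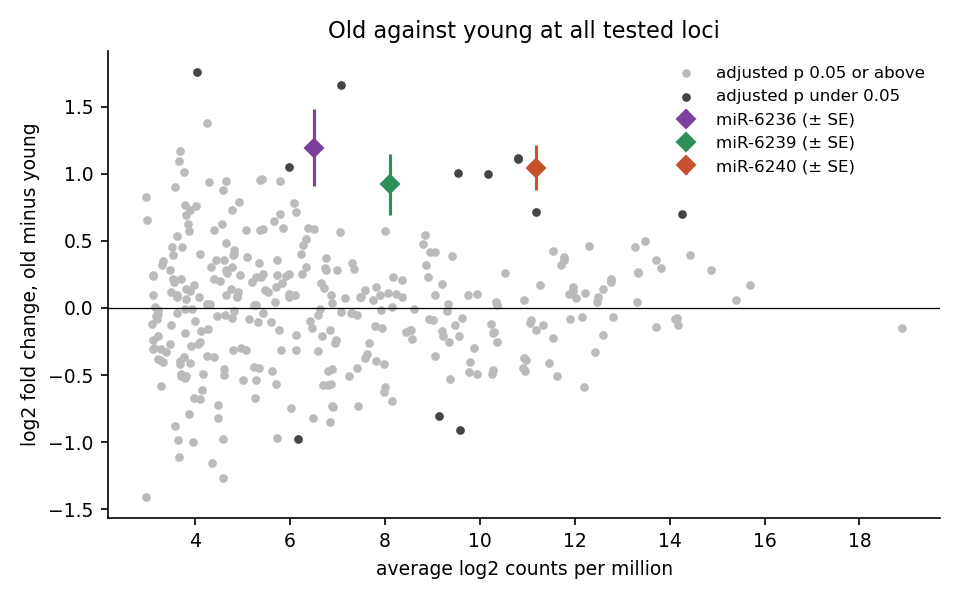
Average log2 CPM against the log2 fold change, old minus young, for the 347 tested loci. Black points have an adjusted p under 0.05 and grey points do not; the 3 tested entries, drawn as diamonds with SE bars, lie at 0.92 to 1.19 at 3 different levels.

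The 10 other loci nearest to miR-6240 by average level had log2 fold changes from -0.47 to 0.71 with a median of -0.12, and 1 of them was called. The 10 nearest to miR-6239 ranged from -0.69 to 0.57 (median -0.07) and the 10 nearest to miR-6236 from -0.82 to 0.60 (median -0.03), none of them called by edgeR. Since the set was proposed with its difference known, these ranges are given for scale only. The spread between libraries of a group was not alike in the 3. For miR-6240 the pooled within-group SD was 0.16 on the log2 scale, near the median of 0.17 among its neighbours. For miR-6239 it was 0.35 against a median of 0.22. For miR-6236 it was 0.48 against a median of 0.27, above the highest neighbour (0.40).

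The 5 entries together held 0.177% ± 0.0232 of all counts in the young group and 0.364% ± 0.0386 in the old group. The share was 0.198%, 0.152% and 0.181% in young replicates 1, 2 and 3 and 0.365%, 0.402% and 0.325% in old replicates 1, 2 and 3. Old replicate 1, which had the lowest total, lay between the other old libraries in this share. Of the counts without miR-21a-5p, the share in old replicate 1 was the lowest of the old group. It was 0.566%, against 0.788% and 0.690% in old replicates 2 and 3. miR-6240 made up most of the sum, and the entries without it held 0.0247% ± 0.00529 in the young and 0.0483% ± 0.00957 in the old group.

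Within the sum, the proportions of the entries were similar in both groups. miR-6240 took 86.1% ± 2.34 of the counts of the 5 entries in young and 86.8% ± 1.88 in old, miR-6239 took 10.7% ± 2.98 and 9.76% ± 1.08, and miR-6236 took 3.05% ± 0.607 and 3.37% ± 0.975. All 3 shares overlapped between the groups. Ratios between counts of the same library do not depend on how libraries are scaled. There were 10.4, 9.02 and 5.92 counts of miR-6240 for each count of miR-6239 in young replicates 1, 2 and 3, and 10.2, 7.83 and 8.92 in the old ones. For each count of miR-6236 there were 23.9, 28.9 and 33.8 counts of miR-6240 in young and 39.2, 22.8 and 20.9 in old.

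The proportions varied between libraries. miR-6239 took 14.1% of the counts of the 5 entries in young replicate 3 (exact binomial 95% interval 12.8 to 15.4), and 8.43% in young replicate 1 (7.44 to 9.50). miR-6236 took 4.11% in old replicate 3 (3.55 to 4.74) and 2.27% in old replicate 1 (1.79 to 2.83). These intervals do not overlap within a group, but they cover counting error only, and no 2 libraries of a group agreed within counting error over all loci.

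**Figure D4:**
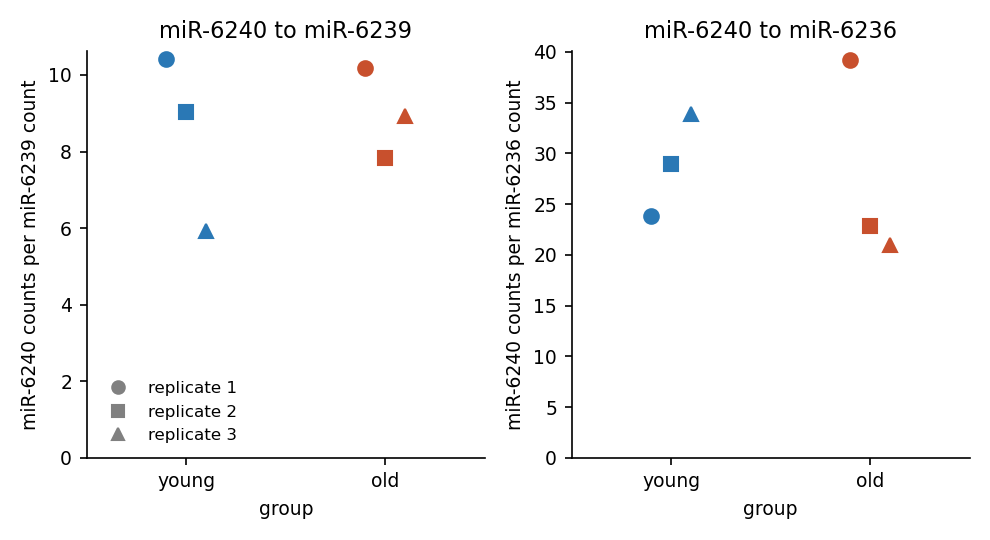
Counts of miR-6240 for each count of miR-6239 (left) and of miR-6236 (right), by group; each symbol is 1 library and the axes start at 0. The groups overlap in both panels, with young from 5.92 to 10.4 and old from 7.83 to 10.2 on the left, and young from 23.9 to 33.8 and old from 20.9 to 39.2 on the right.

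Co-variation within the groups was compared through each library's difference from its group mean on the log2 CPM scale. Old replicate 2 was above the old mean in all 3 entries, by 0.15 for miR-6240, 0.34 for miR-6239 and 0.36 for miR-6236. Old replicate 1 was below it in all 3, at -0.08, -0.27 and -0.64. Young replicate 2 was below the young mean in all 3, at -0.16, -0.29 and -0.17. The remaining libraries were mixed. Young replicate 1 was above the mean in miR-6240 (0.20) and miR-6236 (0.45) and below it in miR-6239 (-0.14). Young replicate 3 was the other way round for miR-6239 (0.43) and miR-6236 (-0.28), with miR-6240 at -0.04. Old replicate 3 was above the mean in miR-6236 (0.28) and slightly below it in miR-6239 and miR-6240 (-0.06 each).

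In all, miR-6236 and miR-6240 deviated to the same side in 5 of 6 libraries, miR-6239 and miR-6240 in 4, and miR-6236 and miR-6239 in 3. These deviations share the scaling of each library, and the 3 of a group add to 0. No correlation was computed from so few libraries, and one over both groups would mostly restate the difference between them.

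Outside the set, likeness to miR-6240 was measured as the root mean square difference of log2 CPM profiles over the 6 libraries, each centred on its own mean. The nearest was miR-499-5p, a miRNA of slow muscle fibres encoded in a myosin gene, at 0.096, where the median of the other tested loci was 0.624. miR-582-5p (0.141), miR-124a-3p at Mir124a-3 (0.159), miR-378d (0.168) and miR-6538 (0.171) followed. The other copies of miR-124a-3p had log2 fold changes of 0.36 and 0.48, against 0.94 at Mir124a-3. The mean level of miR-499-5p was 767 ± 72.1 CPM in the young libraries and 1532 ± 98.0 in the old ones, a log2 fold change of 1.00. miR-6239 came 11th of 346 loci in this order, at 0.273, and miR-6236 came 21st, at 0.315. Since the profiles span both groups, this order mostly ranks loci by a like difference between old and young.

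Other entries that may be fragments of ribosomal, transfer or other structural RNA were taken from a list of 30 names. Of these, 16 had a locus, 5 of these loci had 0 counts in every library, 6 had too few counts to be tested and 5 were tested. None was called by edgeR's quasi-likelihood test or by DESeq2, 2 had an unadjusted p under 0.05 by edgeR, and their median log2 fold change was 0.02, against 0.04 over all 347 tested loci. miR-1983, which resembles a transfer RNA, was the most abundant tested locus of the list, with means of 408 ± 61.2 and 348 ± 55.1 CPM for young and old and a log2 fold change of -0.23 ± 0.19 (edgeR adjusted p = 0.538). The next, miR-5126, had means of 28.0 ± 3.83 and 54.7 ± 22.0 CPM and a log2 fold change of 0.96 ± 0.32 (edgeR adjusted p = 0.112). miR-6538, named above for its likeness to miR-6240, had means of 7.19 ± 2.84 and 16.1 ± 2.85 CPM and a log2 fold change of 1.17 ± 0.46 (edgeR adjusted p = 0.139). The 5 tested loci thus ranged from -0.23 to 1.17, and those of miR-5126 and miR-6538 were of the size seen in the set, with lower levels. Together the list held 0.0432% to 0.0586% of counts in young libraries and 0.0457% to 0.0533% in old ones.

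Neighbours in the registry and in seed were at 0 or at a low level. Of the 40 mature identifiers numbered next to the set, 20 on each side, 2 had a locus in the table and both were at 0 in every library. So were 1115 of all 2110 loci, and nothing is read from these zeros. miR-330-3p, which shares the seed of miR-6240, had means of 15.1 ± 6.48 and 14.3 ± 6.89 CPM for young and old, with a log2 fold change of -0.10 ± 0.46 (edgeR adjusted p = 0.926). miR-6351, which shares the seed of miR-6239, was at 0 in every library.

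The fold change of miR-6240 lay between 0.97 and 1.13 when each library was left out in turn, and between 1.01 and 1.05 under 8 other settings. These values describe how far the number moves with the processing and are not evidence for the difference. Those of miR-6239 (0.74 to 1.16) and miR-6236 (1.02 to 1.46) moved more. miR-6239 was no longer past the threshold without young replicate 1 (adjusted p = 0.217 by edgeR), young replicate 2 (0.129) or old replicate 2 (0.194). miR-6236 was not past it without young replicate 1 (0.0615), young replicate 2 (0.0848), young replicate 3 (0.177) or old replicate 2 (0.194). Without old replicate 1, the library that stood apart, all 3 fold changes were larger, at 1.11 for miR-6240, 1.07 for miR-6239 and 1.46 for miR-6236.

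**Figure D5:**
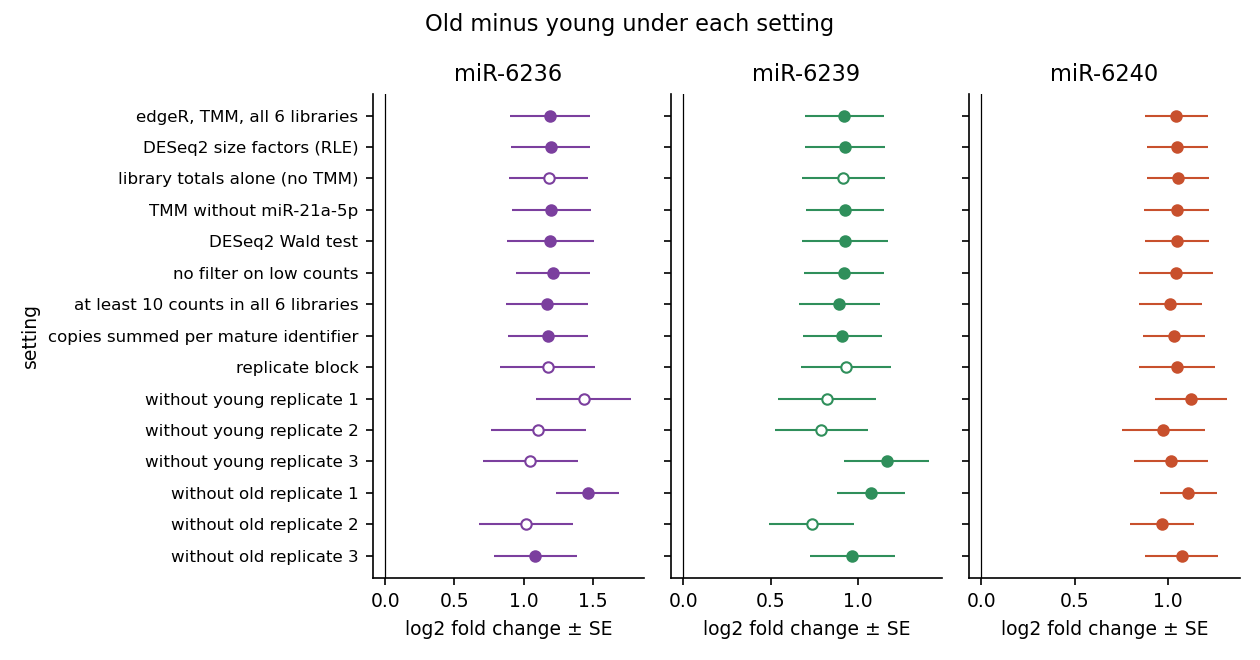
Log2 fold change, old minus young, with SE bars, for the 3 tested entries under each setting of the processing and with each library left out. Filled circles have an adjusted p under 0.05 and open circles do not; miR-6240 stays between 0.97 and 1.13 and is filled at every setting drawn, while 6 circles of miR-6236 and 5 of miR-6239 are open.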

How the data were processed

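The authors deposited an unnormalized table of read counts for each mature miRNA, made with featureCounts version 2.0.6, per the file headers, after alignment with BWA to mm10, per the submitters' processing notes. The command in the header sets no option for strand, for overlapping features or for multi-mapping reads. No source used here gives trimming or alignment settings. Library totals were 904892 to 1706396.

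Groups and replicate numbers came from the library titles. The comparison of old and young used the quasi-likelihood test of edgeR 4.0.16 under R 4.3.3, two-sided, with filterByExpr (minimum count 10, minimum total 15) and TMM factors. Benjamini-Hochberg adjustment covered the 347 loci that passed (threshold 0.05). DESeq2 version 1.42.0 and other scalings, filters and left-out libraries were alternatives. Log2 CPM used a prior count of 2. The procedure was checked on simulated counts. Precursors were folded with RNAfold 2.7.2, and that of miR-6236 is not reported here.

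Of 2110 loci, 1734 were named by exact position in RefSeq, 364 by GENCODE gene and 12 had no name. No label says that replicate numbers pair libraries. Deviations of same-numbered young and old libraries correlated across loci at -0.15 to 0.02, and those of other numbers at -0.09 to 0.23. With 3 libraries per group the deviations add to 0, so that these values cannot show whether libraries were paired. No 2 libraries of a group agreed within sampling noise (chi-square over degrees of freedom 8.17 to 147).

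Named are the 5 entries, the 5 loci most like miR-6240 over the libraries, the 2 most abundant tested loci of the list of possible fragments, and entries that share a seed. Some marker miRNAs are named as well. Members and lists were chosen with earlier results of these data known.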

Additional observations from a re-analysis of the deposited data

How the results depend on the processing

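The log2 fold change of miR-6240 kept its direction and stayed past the threshold of 0.05 in all 14 alternatives, and those of miR-6236 and miR-6239 kept their direction in all 14. Since the set was proposed with its difference known, these repeats describe the processing and are not evidence for the difference. With library totals alone in place of TMM, miR-6236 (1.18, adjusted p = 0.0510) and miR-6239 (0.92, adjusted p = 0.0663) no longer passed edgeR's test. With the replicate number as a block they did not pass either (1.17, adjusted p = 0.104, and 0.93, adjusted p = 0.0888), while miR-6240 did (1.05, adjusted p = 0.0148). Under this block 5 loci were called higher and 1 lower, against 12 and 3 without it. Leaving out each library in turn gave 5 to 25 loci called higher and 0 to 20 called lower, log2 fold changes of 1.02 to 1.46 for miR-6236 and 0.74 to 1.16 for miR-6239. The 0 was without old replicate 2, where 23 lower loci had an unadjusted p under 0.05 in edgeR. The 25 and 20 were without old replicate 1. Loci called lower were 5 with TMM computed without miR-21a-5p, 9 with DESeq2, 5 with no filter, 8 with at least 10 counts in all 6 libraries and 5 with copies summed. The cause was not tested. The share of the 5 entries was 0.361% in young and 0.681% in old of the counts without miR-21a-5p, and 0.0247% and 0.0483% of all counts without miR-6240. Depth limits miR-6238 and miR-6237, whose levels lie at or under a few counts.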
